A study of Homo sapiens with 21 samples.

Results

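Desmosome genes code for the junctions that bind epithelial cells to each other and tie those contacts to the keratin skeleton. The set held 10 genes, found by symbol through their Ensembl identifiers among 60617 genes measured: DSG2, DSG3, DSC2, DSC3, PKP1, PKP2, PKP3, JUP, DSP and PERP. Poly(A) RNA was sequenced from one end in 21 libraries, 3 from each of 7 lines. The lines were the clones EM1, EM2, EM3, M2, M1 and E, and the line labelled Parental, all from SUM149PT. SUM149PT is a human inflammatory breast cancer line without oestrogen or progesterone receptor, and no line was treated. The series is concerned with the intermediate state of the epithelial to mesenchymal transition. Each clone was 1 line, so a difference between clones cannot be told apart from a difference between the states their names stand for.

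In a desmosome, cadherins of the desmoglein (DSG) and desmocollin (DSC) families cross the membrane and bind their counterparts on the neighbouring cell. Inside the cell, plakoglobin (JUP) and the plakophilins (PKP1, PKP2 and PKP3) bind the cadherin tails, and desmoplakin (DSP) links this plaque to keratin filaments. PERP is a membrane protein that desmosomes of stratified epithelium need. Desmosomes are known to be taken apart when epithelial cells turn mesenchymal.

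Library totals were 24.6 to 48.1 in units of 1e6 expected counts. EPCAM, an epithelial surface protein, was at 0.08 to 3.87 TPM in the M2 and M1 libraries and above 100 TPM in the others, and ESR1, the oestrogen receptor, was at most 2.26 TPM. PTPRC, CD3E, PECAM1, VWF and CDH5, which mark blood and vessel cells, were at most 1.37 TPM; CD14, CD68 (a lysosomal protein), HBA1 and HBB reached 4.77, 226, 10.9 and 0.17 TPM, and 4 heart muscle genes at most 2.56 TPM. Among the clones, 8 libraries had a mean effective length of 1806 to 1868 bases (all 3 of E and replicate 3 of each other clone), and 10 had one of 1955 to 2061 bases. These are called the short set and the long set. The Parental libraries lay between them.

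Starting points of transcription were available from RefSeq (GRCh38.p14) for 8 of the 10 genes, not for PKP2 and PKP3. The stretches shown end before the start of both RefSeq and GENCODE 29. They were chosen because they set genes nearly silent in M2 and M1 (DSP, DSC2, DSG3) beside genes still expressed there (DSG2, PERP). Capitals mark CAGGTG or its reverse complement CACCTG, the core letters bound by the repressors of the ZEB and SNAI families. They come from chr6:7541421-7541574 on the plus strand, chr18:31102523-31102671 on the minus strand, chr18:31447491-31447740 on the plus strand, chr18:31497927-31498042 on the plus strand and chr6:138107512-138107669 on the minus strand.
DSP: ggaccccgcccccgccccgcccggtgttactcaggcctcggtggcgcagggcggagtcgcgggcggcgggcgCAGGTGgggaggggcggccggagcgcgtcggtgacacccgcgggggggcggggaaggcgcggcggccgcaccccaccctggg
DSC2: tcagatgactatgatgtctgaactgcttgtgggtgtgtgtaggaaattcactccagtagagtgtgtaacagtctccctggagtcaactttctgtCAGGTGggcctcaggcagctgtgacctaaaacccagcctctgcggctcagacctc
DSG3: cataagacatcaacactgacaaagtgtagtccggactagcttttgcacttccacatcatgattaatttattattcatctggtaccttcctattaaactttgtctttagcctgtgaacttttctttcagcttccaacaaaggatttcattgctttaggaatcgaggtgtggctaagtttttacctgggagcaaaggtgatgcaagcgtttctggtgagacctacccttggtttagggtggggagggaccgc
DSG2: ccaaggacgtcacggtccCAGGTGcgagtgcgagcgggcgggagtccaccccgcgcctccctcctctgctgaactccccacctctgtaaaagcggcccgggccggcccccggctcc
PERP: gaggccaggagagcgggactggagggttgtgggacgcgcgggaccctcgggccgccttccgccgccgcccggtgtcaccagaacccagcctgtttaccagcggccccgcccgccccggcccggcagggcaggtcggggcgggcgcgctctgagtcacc

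Over the 250 bases before the RefSeq start, CAGGTG on either strand was found in 4 of the 10 promoter entries of the 8 genes, 1 each of DSP, DSG2, DSC2 and JUP, while the other entry of DSC2 and of JUP did not hold it. It was found in 17.5% of 35116 promoters of that length. DSP held it 178 and 85 bases before the start, and DSG2 held it 232 and 116 bases before the start. DSG2, called lower in M1 against E but not called in M2, and DSP, near 0 in M2 and M1, both held these letters. Whether the letters bear on the levels was not tested. AACCGGTT, the letters bound by grainyhead-like factors, was in none of the 10 entries and in 0.117% of all promoters. DSP held 33 CpG dinucleotides in that window and PERP 34, against a median of 11 over all promoters, and DSG3 held 4.

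**Figure D1:**
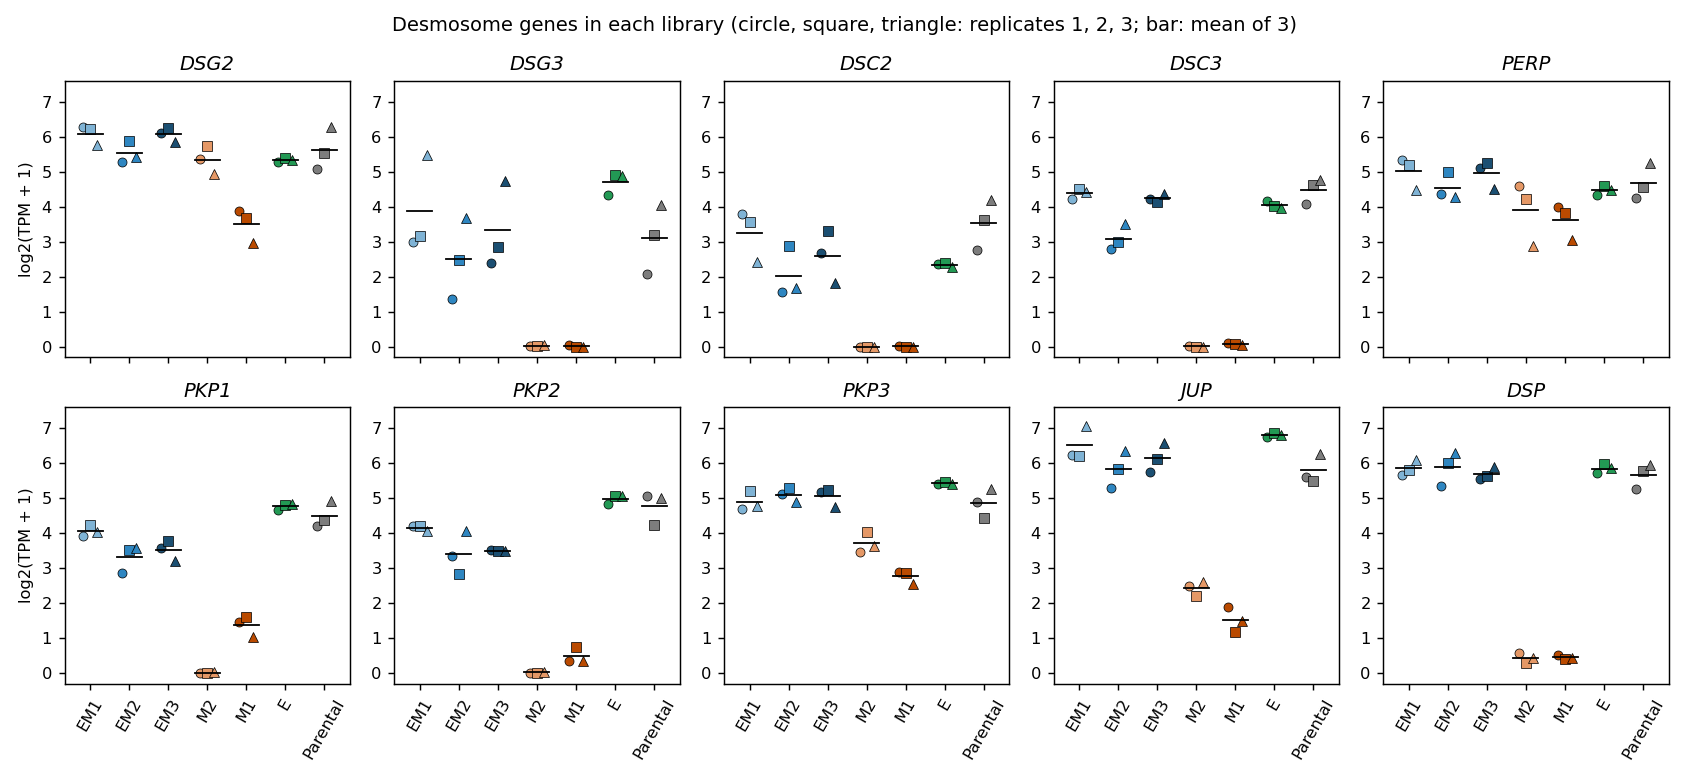
Level of each gene as log2(TPM + 1) in all 21 libraries, by line; symbols are replicates and bars are means of 3. DSG2, PERP and PKP3 stay above 2 on this axis in every library, and DSG3, DSC2 and DSC3 lie at the bottom in M2 and M1.

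Of the 4 desmosomal cadherins, 3 were close to absent in both M clones, and DSG2 was not. DSG2 is the most widely expressed desmoglein. It was at 40.1, 52.3 and 29.8 TPM in M2 and 13.8, 11.7 and 6.85 TPM in M1, against 37.97, 40.8 and 39.3 TPM in E. It was at 77.2, 73.6 and 53.8 TPM in EM1, 38.3, 58.4 and 41.8 TPM in EM2 and 68.3, 75.7 and 56.4 TPM in EM3, and at 32.95, 45.2 and 77.2 TPM in Parental. The M1 libraries were the lowest of all 21 and did not overlap with E, whereas M2 overlapped with E. The log2 change in counts was -2.32 ± 0.22, adjusted p = 1.78e-07 in M1 against E (edgeR quasi-likelihood test, as for every adjusted p here) and -0.31 ± 0.21, adjusted p = 0.224 in M2 against E. All 10 genes fell in M1 against E, where 18.1% of 18632 genes fell, and 9 of 10 fell in M2 against E, where 26.8% did. All 10 genes passed the filter on low counts. In these bulk libraries, fewer cells with a transcript and less of it per cell cannot be told apart.

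DSG3, the desmoglein of basal stratified epithelium, was at 0.01, 0.02 and 0.03 TPM in M2 and 0.04, 0 and 0 TPM in M1, against 19.2, 28.9 and 28.3 TPM in E. Its summed counts over 3 libraries were 15 in M2 and 10 in M1, against 26245 in E. The M libraries thus held traces of DSG3. In the other lines it was at 6.99, 8.05 and 43.5 TPM in EM1, 1.56, 4.61 and 11.9 TPM in EM2, 4.25, 6.27 and 25.9 TPM in EM3 and 3.21, 8.14 and 15.5 TPM in Parental. Replicate 3 was the highest of each EM clone, and in EM1 it lay above all 3 E libraries. The deposited TPM has 2 decimals, so a 0 can hold a few counts. The log2 changes against E were -0.65 in EM1, -2.29 in EM2 and -1.39 in EM3, none called. In EM2 the gene was called lower with limma-voom (adjusted p = 0.0212), with limma-trend on log2(TPM + 1) (0.0417) and by edgeR without the low-count filter (1.56e-14), which also called EM3 (5.66e-06).

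DSC2, the most widely expressed desmocollin, was at 0, 0 and 0 TPM in M2 and 0.02, 0 and 0 TPM in M1, against 4.15, 4.27 and 3.81 TPM in E. All M2 libraries together held 1 DSC2 count, against 3860 in E, a ratio of 3040 after scaling with a 95% counting interval of 545 to 120000. DSC2 was at 12.8, 10.8 and 4.41 TPM in EM1, 1.97, 6.3 and 2.17 TPM in EM2, 5.41, 8.89 and 2.56 TPM in EM3 and 5.78, 11.2 and 17.5 TPM in Parental. Each EM clone overlapped with E except EM1, whose libraries all lay above it without a call (log2 change 0.81 ± 0.48, adjusted p = 0.246). In TPM, 30.2% of genes lay above E in every EM1 library, and in scaled counts the DSC2 ranges of EM1 and E overlapped. The strand setting of the counting is not given, and the antisense genes that overlap DSC2 (DSCAS) and DSG2 (DSG2-AS1) held at most 4 and 2 counts in a library.

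DSC3, the basal desmocollin, was at 0.01, 0 and 0 TPM in M2 and 0.07, 0.05 and 0.03 TPM in M1, against 16.9, 15.4 and 14.8 TPM in E. It was the cadherin that set EM2 apart from the other EM clones. It was at 5.88, 7.00 and 10.3 TPM in EM2, against 17.8, 21.7 and 20.4 TPM in EM1, 17.6, 16.6 and 19.5 TPM in EM3 and 15.9, 23.9 and 26.1 TPM in Parental. DSC3 fell in EM2 against E (log2 change -1.15 ± 0.28, adjusted p = 0.00872). Without EM2 replicate 1 that adjusted p was 0.0603. It also fell in EM2 against EM1 (log2 change -1.54 ± 0.28, adjusted p = 0.00145), where 4.63% of genes fell, and rose in EM3 against EM2 (log2 change 1.21 ± 0.28, adjusted p = 0.0109), where 3.93% rose.

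DSG2 therefore made up most of the cadherin RNA of the M clones. As a share of the summed TPM of the 4 cadherins it was 99.9% ± 0.0332 in M2 and 99.4% ± 0.29 in M1, against 46.6% ± 1.7 in E (SD, n = 3 each). The share was 58.6% ± 12.7 in EM1, 73.3% ± 8.96 in EM2 and 65.3% ± 9.75 in EM3. Their summed level was 40.7 ± 11.3 TPM in M2 and 10.9 ± 3.61 TPM in M1, against 84.5 ± 5.72 TPM in E.

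**Figure D2:**
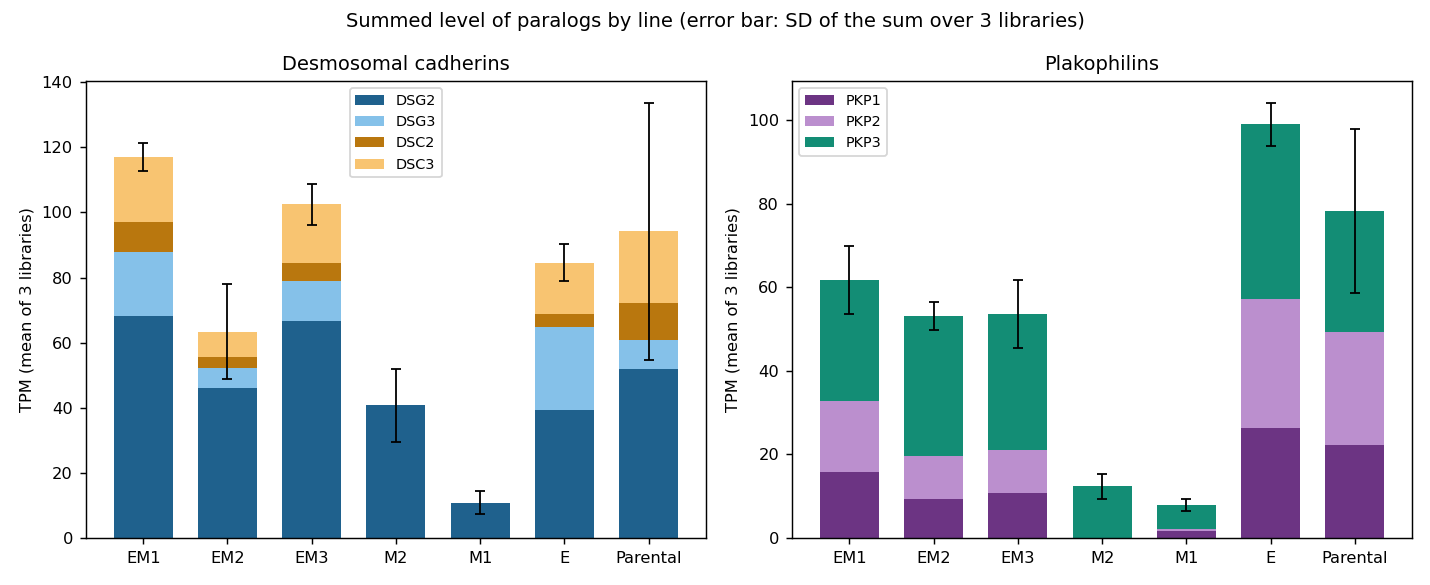
Mean TPM of the 4 desmosomal cadherins (left) and the 3 plakophilins (right), stacked by gene for each line; error bars are the SD of the sum over 3 libraries. DSG2 fills nearly the whole cadherin bar of M2 and M1, and PKP3 nearly the whole plakophilin bar of M2.

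The plakophilins were the desmosome genes that fell in every clone against E. PKP1, a plakophilin of stratified epithelium, was at 0, 0.01 and 0.02 TPM in M2 and 1.76, 2.06 and 1.05 TPM in M1, against 24.6, 27.2 and 27.3 TPM in E. It was at 14.1, 17.9 and 15.5 TPM in EM1, 6.3, 10.6 and 10.9 TPM in EM2 and 10.9, 12.8 and 8.24 TPM in EM3, and at 17.5, 19.9 and 29.1 TPM in Parental. All EM libraries lay below all E libraries, as did 12.9% of genes in EM1, 13.6% in EM2 and 12.6% in EM3. The log2 change was -1.15 ± 0.29, adjusted p = 0.0106 in EM1, -1.86 ± 0.30, adjusted p = 0.000334 in EM2 and -1.79 ± 0.30, adjusted p = 0.000421 in EM3. Without EM1 replicate 1 the adjusted p for EM1 was 0.0546.

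PKP2, the plakophilin of simple epithelium and heart muscle, was at 0.01, 0 and 0.03 TPM in M2 and 0.27, 0.67 and 0.27 TPM in M1, against 27.5, 32.6 and 32.3 TPM in E. Its 3 counts over the M2 libraries gave a ratio to E of 2950, with a 95% counting interval of 1010 to 14300. PKP2 was at 17.4, 17.5 and 15.8 TPM in EM1, 9.13, 6.12 and 15.6 TPM in EM2, 10.5, 10.2 and 10.3 TPM in EM3 and 32.7, 17.7 and 31.1 TPM in Parental. The EM clones again lay below E without overlap, with log2 changes of -1.27 ± 0.32, adjusted p = 0.0104 in EM1, -1.74 ± 0.32, adjusted p = 0.00132 in EM2 and -1.75 ± 0.32, adjusted p = 0.00108 in EM3. With mean effective length as a covariate the adjusted p for EM1 was 0.054. The gene's effective length ran from 1477 to 2485 bases over the 15 libraries outside the M clones. TPM is scaled by this length, whereas the counts tested were not corrected for it. On log2(TPM + 0.1) PKP2 was not called in EM1 (log2 change -0.86, limma-trend adjusted p = 0.0796).

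PKP3, the plakophilin found in nearly all desmosomes of stratified and simple epithelium, was at 9.93, 15.6 and 11.4 TPM in M2 and 6.46, 6.25 and 4.88 TPM in M1, against 41.2, 43.3 and 41.3 TPM in E. It was at 24.9, 35.7 and 26.4 TPM in EM1, 33.9, 38.04 and 28.9 TPM in EM2, 34.96, 36.96 and 25.8 TPM in EM3 and 28.8, 20.8 and 37.5 TPM in Parental. PKP3 fell less far than PKP1 and PKP2 on the log2 scale in both M clones, a difference between genes that was not tested. Its share of plakophilin TPM was 99.8% ± 0.205 in M2 and 74.8% ± 4.69 in M1, against 42.4% ± 1.66 in E (SD, n = 3 each). The log2 change was -0.88 ± 0.20, adjusted p = 0.00443 in EM1, -0.65 ± 0.19, adjusted p = 0.0317 in EM2 and -0.89 ± 0.20, adjusted p = 0.00384 in EM3. The call in EM2 was lost on leaving out any 1 library of EM2 or E, with adjusted p up to 0.0912. With limma-trend on log2(TPM + 1) PKP3 was not called in EM1 (adjusted p = 0.102), EM2 (0.357) or EM3 (0.24), nor in EM2 by edgeR without the low-count filter (0.119).

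JUP, which takes part in both desmosomes and adherens junctions, was at 4.66, 3.57 and 5.04 TPM in M2 and 2.71, 1.26 and 1.81 TPM in M1, against 107, 116 and 111 TPM in E. It was at 74.6, 73.6 and 134 TPM in EM1, 37.9, 56.4 and 81.3 TPM in EM2, 52.9, 69.3 and 94.1 TPM in EM3 and 48.3, 44.3 and 76.2 TPM in Parental. E was the line with the highest mean, and its libraries did not overlap with those of EM2, EM3 or Parental. JUP fell in EM2 against E (log2 change -1.17 ± 0.38, adjusted p = 0.0452). On leaving out 1 library at a time the call held in only 9 of 21 fits, with adjusted p from 0.0151 to 0.196. It was not called in EM1 (log2 change -0.50) or EM3 (-0.94).

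In all, 3 genes fell in EM1 against E (PKP1, PKP2 and PKP3), where 8.09% of genes fell. In EM2 against E 5 fell, those 3 with DSC3 and JUP, where 6.95% of genes fell. In EM3 against E the 3 plakophilins fell, where 7.96% of genes fell. No desmosome gene was called higher in these 3 comparisons, which share the E libraries, by edgeR, DESeq2 or limma-voom, where edgeR called 9.84, 6.95 and 9.36% of genes higher. At an unadjusted p under 0.05, DSG2 alone was higher, in EM1 (log2 change 0.44 ± 0.21, adjusted p = 0.147 by edgeR). With the compared lines only in the fit, DSG2 was called higher in EM1 (adjusted p = 0.0489) and in EM3 (0.0372). Against Parental, none was called in EM1 by the edgeR fit reported, DESeq2 or limma-voom, where edgeR called 1.07% of genes lower. None had an unadjusted p under 0.05 in that edgeR fit, but edgeR without the low-count filter called 1. Against Parental, 4 genes fell in EM2 (PKP1, PKP2, DSC2 and DSC3) and 1 in EM3 (PKP1), where 3.17% and 1.88% of genes fell. In M2 9 genes fell against Parental and in M1 10, where 24.7% and 14% did. PKP3 had log2 changes of 0.01 in EM1, 0.24 in EM2 and 0.00 in EM3 against Parental, none called. The median log2 change of the 10 genes against E was -0.39 in EM1, -0.90 in EM2 and -0.71 in EM3, beside 0.04, 0.01 and 0.03 over all genes tested.

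DSP, the plakin that no desmosome forms without, was low in both M clones and in no other line. It was at 0.49, 0.21 and 0.35 TPM in M2 and 0.42, 0.33 and 0.36 TPM in M1, against 51.6, 61.6 and 56.9 TPM in E. In the other lines it was at 49.8, 55.5 and 67.4 TPM in EM1, 40.1, 63.1 and 78.4 TPM in EM2, 46.3, 48.6 and 57.97 TPM in EM3 and 37.7, 53.5 and 60.7 TPM in Parental. The 3 EM clones all overlapped with E, and no library outside M2 and M1 was below 37.7 TPM. The log2 change was -7.59 ± 0.39, adjusted p = 2.47e-11 in M2 and -7.61 ± 0.39, adjusted p = 1.83e-10 in M1. It was -0.28 in EM1, -0.16 in EM2 and -0.53 in EM3, none called, and the first 2 of these turned positive with the library set as a term (0.06 and 0.14).

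PERP kept more than a trace in both M clones. It was at 23.1, 17.7 and 6.42 TPM in M2 and 14.97, 13.1 and 7.27 TPM in M1, against 19.3, 23.2 and 21.4 TPM in E. It was at 39.9, 35.7 and 21.5 TPM in EM1, 19.5, 31.00 and 18.4 TPM in EM2, 33.3, 37.2 and 21.7 TPM in EM3 and 17.97, 22.8 and 37.1 TPM in Parental. M1 lay below E in every library, whereas M2 overlapped with E in TPM through replicate 1, of the long set. All E libraries were of the short set. The log2 change was -1.31 ± 0.30, adjusted p = 0.00195 in M1 and -0.84 ± 0.29, adjusted p = 0.0224 in M2. Over 12 other settings it ran from -1.95 to -0.85 in M1 and from -1.8 to -0.57 in M2. The M2 call was lost without M2 replicate 3, E replicate 2 or E replicate 3 (adjusted p up to 0.0937), with the compared lines only in the fit (0.0851, edgeR), and on log2(TPM + 1), where M1 was not called either (limma-trend adjusted p = 0.0984) and the median of 13663 genes over 1 TPM stood, in the 5 clones against E, 0.20 to 0.28 above 0.

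**Figure D3:**
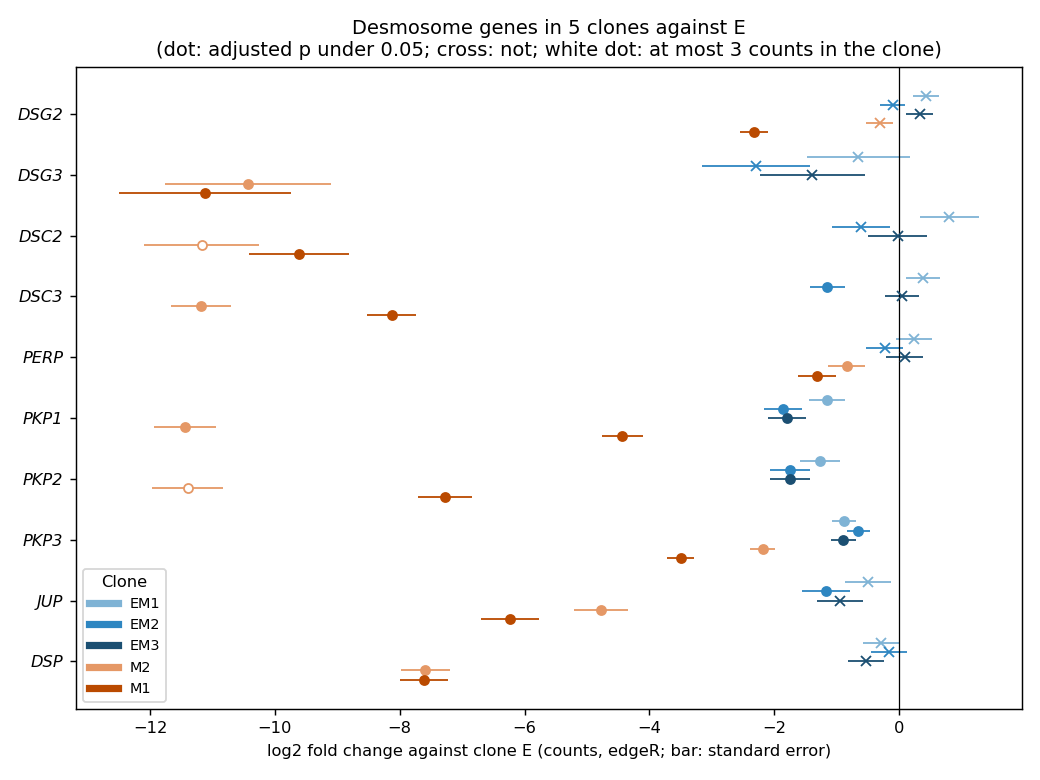
Log2 fold change in counts against E (horizontal axis) for each gene and clone, with standard errors; dots were called, crosses were not, and white dots rest on at most 3 counts in the clone. The M clones lie far left for most genes, while DSG2 in M2 sits at -0.31 and PERP at -0.84.

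Between M2 and M1, 6 of the 10 genes were called, where 41.2% of 18632 genes were. Whether 6 of 10 exceeds that share was not tested. Against M1, M2 had 3 genes higher (DSG2, PKP3 and JUP) and 3 lower (PKP1, PKP2 and DSC3), where 19% of genes were higher and 22.2% lower. DSG2 had a log2 change of 2.02 ± 0.21, adjusted p = 4.45e-07, PKP3 one of 1.32 ± 0.20, adjusted p = 3e-05 and JUP one of 1.46 ± 0.39, adjusted p = 0.00516. On the other side, PKP1 had -7.01 ± 0.46, adjusted p = 7.56e-10, PKP2 had -4.13 ± 0.63, adjusted p = 3.42e-05 and DSC3 had -3.06 ± 0.57, adjusted p = 0.000271. PKP1 had 7 counts over the 3 M2 libraries and 1059 over the 3 M1 libraries, so M1 kept a low level of it and M2 had traces. PKP2 and DSC3 were below 1 TPM in both clones, and with limma-trend on log2(TPM + 1) neither was called (adjusted p = 0.176 and 0.829).

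**Figure D4:**
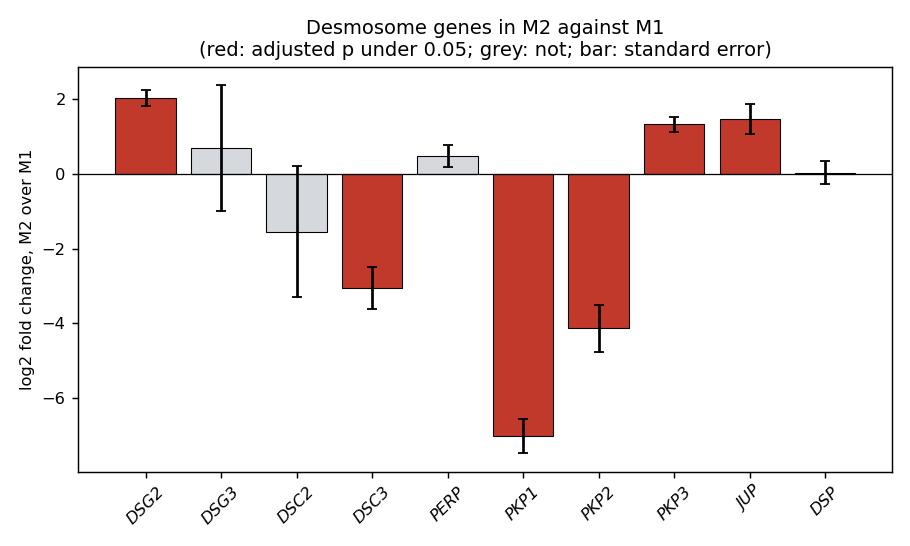
Log2 fold change of M2 over M1 for the 10 genes, with standard errors; red bars were called. DSG2, PKP3 and JUP lie above 0, and PKP1, PKP2 and DSC3 lie below it, with PKP1 at -7.01.

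Between E and Parental, PKP3 was the 1 gene called, and it rose (log2 change 0.89 ± 0.20, adjusted p = 0.00742), where 5.02% of genes rose. DSG3 (log2 change 1.84) and JUP (1.03) had E libraries all above the Parental ones in TPM without a call, where 15.8% of genes did. DSC2 lay below Parental in every E library, also without a call (-1.18 ± 0.48, adjusted p = 0.116), where 25.6% of genes did. PKP3 was not called with limma-trend on log2(TPM + 1) (adjusted p = 0.106), and the number called ran from 0 to 6 over the other settings.

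Several genes moved with the library set inside the EM clones. In all 3 EM clones, replicate 3, the short library, was above both others for DSG3, DSP and JUP and below both for PERP; for PERP it was so in M2 and M1 too. Its DSG3 CPM (counts per TMM-scaled library size) was 6.62 times the mean of the other two in EM1, 4.98 times in EM2 and 5.90 times in EM3. All E libraries belonged to the short set, so the set goes with the difference between each EM clone and E. M2 and M1 were split between the sets as the EM clones were, so the same holds for them against E. The Parental libraries lay between the sets, so effective length also goes with every difference from Parental. In the short set alone, with 1 library for each EM clone, PKP1 had log2 changes of -1.39 in EM2 and -1.96 in EM3, DSG3 of 0.55 in EM1 and -1.18 in EM2, and DSG2 of 0.23 in EM1 and 0.27 in EM3. The spread in that fit came from the 3 E libraries alone and the lone libraries were assumed to vary like them, so these are given as values without a call. With the library set as a term in the fit over the clones, PKP1, PKP2 and PKP3 were lower in all 3 EM clones (PKP1 log2 change -1.10, -1.82 and -1.73 in EM1, EM2 and EM3), and DSC2, DSC3 and JUP in EM2 (-1.27, -1.17 and -0.66). DSG3 was not called in any EM clone in that fit (0.32, -1.17 and -0.36).

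**Figure D5:**
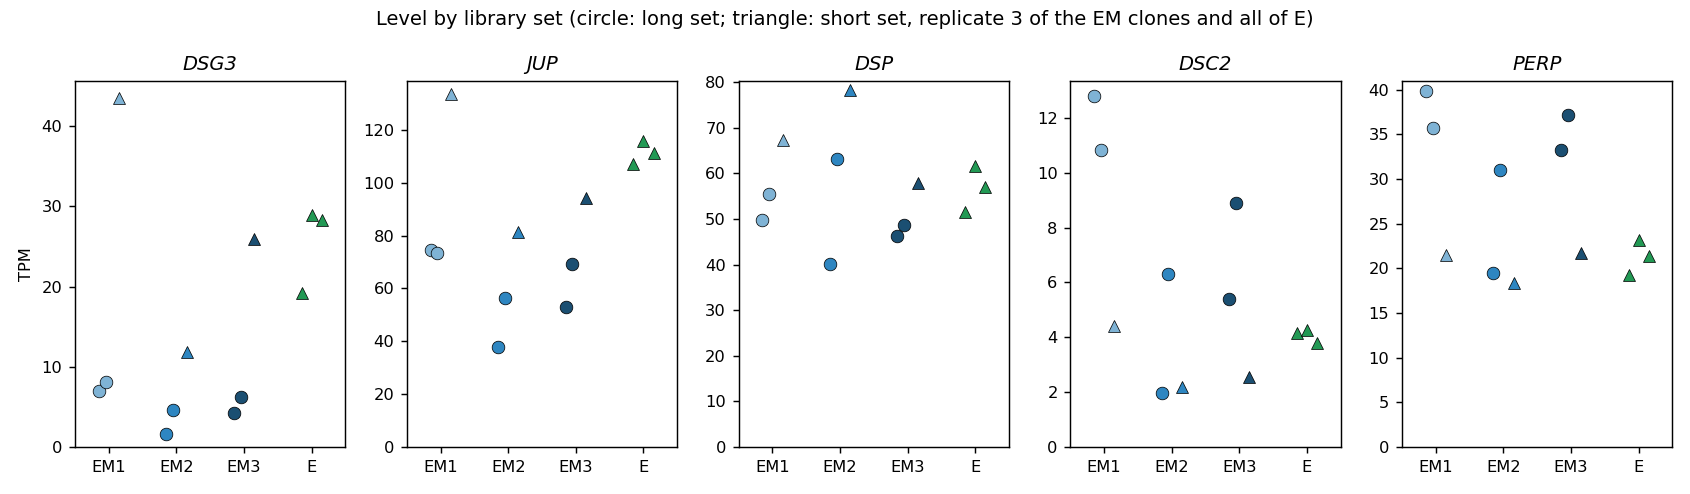
TPM of 5 genes in the EM clones and E; circles are long-set libraries and triangles are short-set libraries. In each EM clone the triangle lies above both circles for DSG3, JUP and DSP and below both for PERP.

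Keratins, the filaments that desmoplakin anchors, were lower along with the plaque genes. Of 11 keratin genes, 11 fell in M2 and 11 in M1 against E, and 9 fell in EM1, 6 in EM2 and 10 in EM3, where 26.8, 18.1, 8.09, 6.95 and 7.96% of all genes fell. KRT5, the basal keratin, was at 0.24, 0.35 and 0.50 TPM in M2 and 40.5, 30.8 and 28.3 TPM in M1, against 742, 831 and 760.3 TPM in E. KRT18, a keratin of simple epithelium, kept a level of 138.1, 107 and 162 TPM in M2 and 56.02, 64.2 and 78.9 TPM in M1, against 475, 463 and 463 TPM in E. Keratin genes have close copies that can share reads, and the counting was not described in enough detail to tell how they were split.

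Of 9 further desmosomal plaque and cornified envelope genes, 6 were tested, and DSG1, DSC1 and CDSN had too few counts. PPL, a plakin, was at 0.02, 0.16 and 0.01 TPM in M2 and 0.47, 0.41 and 0.48 TPM in M1, against 25.6, 29.3 and 28.6 TPM in E, and it fell in all 5 clones. EVPL, its partner plakin, was listed at 0 in all 3 M2 libraries, and at 1.73, 1.54 and 1.32 TPM in M1, against 2.71, 2.59 and 2.25 TPM in E. PKP4, a plakophilin relative found also in adherens junctions, was higher in M2 against E (log2 change 0.62 ± 0.19, adjusted p = 0.00906).

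Of 10 adherens junction genes, 7 fell in M2 and 7 in M1 against E, where 26.8% and 18.1% of all genes fell. CDH1 (E-cadherin) was at 0.06, 0 and 0.10 TPM in M2 and 0.12, 0.07 and 0.05 TPM in M1, against 87.5, 117 and 118 TPM in E. CTNNB1 (beta-catenin), the close relative of JUP, was at 139, 98.3 and 89.1 TPM in M2 and 108, 119 and 95.02 TPM in M1, against 127, 129.6 and 124 TPM in E. Its log2 change was -0.54 ± 0.22, adjusted p = 0.0489 in M2 and -0.60 ± 0.22, adjusted p = 0.043 in M1, beside -4.77 and -6.23 for JUP.

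Of 10 regulators of desmosomal genes, 4 rose and 5 fell in M2, and 3 rose and 6 fell in M1, against E. Of all genes, 24.6% rose and 26.8% fell in M2, and 18.1% rose and 18.1% fell in M1. ZEB1, a repressor of epithelial genes, was at 23.7, 33.9 and 22.6 TPM in M2 and 28.03, 39.99 and 31.97 TPM in M1, against 0.08, 0.35 and 0.09 TPM in E. It also rose in the EM clones, by 2.34 (EM1), 2.96 (EM2) and 4.48 (EM3) on the log2 scale. Its mean level there was 0.613, 1.33 and 3.38 TPM, and the EM1 range overlapped with E in TPM. GRHL2, a grainyhead-like factor, rose in the same clones too, by 1.53, 1.09 and 0.87, and fell in M2 (-9.94) and M1 (-8.91). Of the 10 regulators, 3 rose in each EM clone, and 2, 3 and 2 fell in EM1, EM2 and EM3. Of all genes, 9.84, 6.95 and 9.36% rose and 8.09, 6.95 and 7.96% fell. TP63, the basal epithelial factor known to activate PERP, went different ways in the M clones: it was at 10.01, 12.4 and 1.43 TPM in M2 and 0.06, 0.07 and 0.03 TPM in M1, against 0.68, 1.29 and 1.03 TPM in E. Its log2 change was 2.99 ± 0.83, adjusted p = 0.00559 in M2 and -4.29 ± 0.95, adjusted p = 0.0017 in M1. Replicate 3 of M2, of the short set like all of E, was at 1.43 TPM, beside 1.29 TPM in the highest E library.

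Of 8 proteases and kinases known to act on desmosomes, 7 were tested; 2 rose and 3 fell in M2, and 2 rose and 1 fell in M1, against E, beside the same shares of all genes as for the regulators. PRKCA, a kinase that lowers desmosomal adhesion, was at 25.7, 20.4 and 14.4 TPM in M2 and 5.92, 5.67 and 3.11 TPM in M1, against 0.87, 0.79 and 0.76 TPM in E. PRKCA went the other way in EM1 (log2 change -1.38) and EM3 (-2.17), both called lower, and was not called in EM2 (-0.43). Among the proteases, MMP9 fell in M2 (-9.84) and KLK5 in M1 (-8.49), from means of 1.03 and 0.783 TPM in E.

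The genes most like the mean of the 10 over 21 libraries on log2(TPM + 1), among 13652 compared, were MYO5B, CDH3, MAL2, LAD1, FAAH, TPD52L1, ST14 and CRB3. Pearson's r was 0.989 for MYO5B, an epithelial transport motor, and 0.984 for CRB3, a polarity protein, and 78 genes had r above 0.95. The libraries of a line share their clone, so these values mostly describe M2 and M1 against the other lines. Each gene was also set against the mean of the other 9. DSG2 (r = 0.70) and PERP (0.71) were the least alike, and the other 8 had r of 0.88 to 0.98. Without M2 and M1, over 15 libraries, r ran from 0.11 (PKP3) to 0.76 (PKP1).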

How the data were processed

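The authors deposited RSEM gene tables. Per the submitters' processing notes, bcl2fastq 2.20.0.422, cutadapt 2.4, STAR 2.7.2b and RSEM 1.3.2 were used with hg38; the annotation and strand setting are not given in the sources used here. The file headers give, for each gene, the deposited expected count, TPM and effective length in bases. Between 7.4 and 8.6% of expected counts in a library were not whole; they were rounded and tested with edgeR 4.0.16 in R 4.3.3 (TMM, low-count filter by line, quasi-likelihood F-test, 21 libraries in 1 fit, 14 residual degrees of freedom). Genes with a BH-adjusted p under 0.05 over the 18632 genes tested were called. Alternatives used DESeq2 1.42.0 and limma 3.58.1. Levels are TPM as deposited. The fit was tested on simulated data, where edgeR recovered 26.9% of 2-fold, 70.1% of 4-fold and 98.5% of 8-fold changes. A gene not called may therefore still have changed.

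The members and lists were chosen with earlier results of these data known. Genes named were the 10 members, genes of the lists and the 8 most like the members' mean. The labels do not say whether replicates were separate cultures, and p-values then cover only the spread between these libraries, which may be technical. Counting intervals cover counting error only.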

Additional observations from a re-analysis of the deposited data

Results flagged for a closer look

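Against E, 6 genes changed by different amounts in the M clones, tested as M2 against M1 (edgeR quasi-likelihood test, BH-adjusted). These are the calls already given for that comparison, where 41.2% of all genes were called. DSG2 differed by 2.02, JUP by 1.46 and PKP3 by 1.32 on the log2 scale, all higher in M2. PKP1 differed by -7.01, PKP2 by -4.13 and DSC3 by -3.06, all lower in M2. Among the EM clones, DSC3 differed by -1.54 in EM2 against EM1 and by 1.21 in EM3 against EM2.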

How the results depend on the processing

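The counts of desmosome genes called in M1 against E, M2 against E and M2 against M1 stayed within 1.5 times of 10, 9 and 6. This held under every setting run that left more than 1 library in each compared line. The other counts moved as follows. For EM1 against E, 3 became 0 with limma-trend on log2(TPM + 0.1), and leaving out 1 library gave 2 to 3. For EM2 against E, 5 became 8 in the short set of libraries alone, and leaving out 1 library gave 2 to 5. For EM3 against E, 3 became 5 without the low-count filter, 5 with the compared lines only and 5 with the replicate block. With the compared lines only, the calls gained were JUP, lower, and DSG2, higher. Leaving out 1 library gave 3 to 4. For E against Parental, 1 became 4 without the filter, 2 with DESeq2, 2 with limma-voom, 0 with log2(TPM + 0.1), 6 with the compared lines only and 3 with the replicate block. The cause was not tested. The short set alone was chosen after seeing the data. It has 1 library for each EM and M clone, so its spread comes from the 3 E libraries only, and its calls are not counted here. Replicate numbers were not taken to pair the libraries in these 7 comparisons: 10 of 21 same-numbered pairs correlated above 0.1, and in none of the 7 did every pair. Over all comparisons of lines, 13 of 21 libraries had their best match among those sharing their number. In EM3 against EM2 every same-numbered pair correlated above 0.1 (0.40 to 0.67), and DSC3 there was 1.21 with the replicate block too (adjusted p = 0.0076, edgeR). With the replicate block, the calls gained were DSG3 and JUP in EM3 against E (adjusted p = 0.0104 and 0.0057), DSG3 and JUP in E against Parental (0.0109 and 0.00633) and DSG3 in EM2 against E (0.00135), by edgeR.

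Signs turned only for changes not called in the fit reported, and each value is a log2 change. With log2(TPM + 1), DSP was 0.01 in EM1 and 0.04 in EM2, DSG2 0.20 in EM2 and 0.01 in M2, DSC2 0.26 in EM3 and PERP 0.07 in EM2, all against E, and DSP was -0.03 in M2 against M1. With log2(TPM + 0.1) these were 0.01, 0.04, 0.21, 0.01, 0.29, 0.07 and -0.11. With a library set term, DSP was 0.06 in EM1 and 0.14 in EM2, DSG3 0.32 and JUP 0.02 in EM1, and PERP -0.18 in EM1 and -0.32 in EM3, against E. With mean effective length as a covariate, DSP was 0.04 in EM1 and 0.08 in EM2, DSG3 0.29, DSC2 -0.11, JUP 0.03 and PERP -0.26 in EM1, and DSC3 -0.05 and PERP -0.45 in EM3, against E. That covariate also gave DSP -0.02 in M2 against M1, and DSG2 0.03 and PERP 0.34 in E against Parental. In the short set alone, DSP was 0.03, DSG3 0.55, DSC2 -0.11, JUP 0.06 and PERP -0.21 in EM1, DSP 0.41 and DSG2 0.01 in EM2, and PERP -0.22 in EM3, against E. There, DSC2 was 3.10 and PERP -0.03 in M2 against M1. The long set alone gave DSG3 -0.46 in M2 against M1, the compared lines only gave DSC2 0.01 in EM3 against E, and limma-voom gave DSP -0.02 in M2 against M1. In E against Parental, PERP was 0.08 without the filter, and 0.01 with DESeq2 size factors, DESeq2 and limma-voom. Leaving out 1 library at a time gave -0.55 to 0.09 for DSP and -0.19 to 0.04 for DSG2 in EM2, and -0.46 to 0.28 for DSC2 and -0.03 to 0.21 for PERP in EM3, against E. It gave -0.17 to 0.31 for DSP, -0.07 to 2.37 for DSG3 and -3.47 to 1.94 for DSC2 in M2 against M1, and -0.26 to 0.12 for DSG2 and -0.12 to 0.17 for PERP in E against Parental. DSG2 in M2 against E was called lower with effective length as a covariate (adjusted p = 0.0359) and with a library set term (0.0367), by edgeR.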
